A study of Mus musculus with 6 samples.

Results

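The transcripts of 8 genes of glucose breakdown and lactate handling were followed in suspended mouse soleus: the aldolases Aldoa and Aldoc, glyceraldehyde-3-phosphate dehydrogenase (Gapdh), phosphoglycerate kinase (Pgk1), enolase 2 (Eno2), the lactate dehydrogenase subunits Ldha and Ldhb, and the E1 alpha subunit of pyruvate dehydrogenase (Pdha1). They were taken by annotated symbol, 8 of the 203 genes named on an array of 223 probes, and each has 1 probe. The soleus, a calf muscle of mainly oxidative fibres that holds posture, came from C57Bl/6 mice labelled wild type and hindlimb suspended. Suspension takes the weight off the hindlimbs. All 6 arrays, numbered replicates 1 to 6, belong to this group, each made with 3 microgram of total RNA, and no unsuspended muscle was analysed here. The sample titles also carry the codes HUR and HS7, which the sources used here do not explain, and age, sex and length of suspension are not otherwise stated. The labels do not say whether each array came from a different animal, so the spread between arrays may be partly technical.

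Glycolysis splits glucose into pyruvate in the cytosol. Aldolase cuts fructose bisphosphate into 3-carbon sugars, Gapdh oxidises one of them, Pgk1 takes off the first ATP and enolase makes phosphoenolpyruvate near the end of the path. Pyruvate then goes either to lactate through lactate dehydrogenase, a tetramer of Ldha and Ldhb subunits, or into mitochondria through pyruvate dehydrogenase. Ldha is the subunit typical of fast, glycolytic muscle and Ldhb that of heart and slow, oxidative muscle. Aldoa is the aldolase of muscle, whereas Aldoc and Eno2 are best known from brain.

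The RefSeq promoter table (build GRCm38.p6) holds 12 transcription starts for the 8 genes, and the 250 bases before 4 of these starts are shown. They are those of Ldha and Ldhb, the isoform pair of lactate dehydrogenase, and those of Aldoc and Pgk1. The levels of Aldoc and Pgk1 had the highest Pearson correlation over arrays of any pair among the 8 genes. Capitals mark ACGTG on either strand (CACGT when read on the printed strand), one of the core sequences that hypoxia-inducible factors bind. Matches to the other core, GCGTG, are counted after the sequences and not marked in them.
Ldha, first of 2 starts, chr7:46845554-46845803, plus strand: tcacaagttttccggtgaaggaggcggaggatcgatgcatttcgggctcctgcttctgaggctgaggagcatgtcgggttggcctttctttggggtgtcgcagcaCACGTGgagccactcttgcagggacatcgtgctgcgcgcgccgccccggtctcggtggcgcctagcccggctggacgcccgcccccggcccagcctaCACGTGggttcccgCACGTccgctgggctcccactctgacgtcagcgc
Ldhb, chr6:142507958-142508207, minus strand: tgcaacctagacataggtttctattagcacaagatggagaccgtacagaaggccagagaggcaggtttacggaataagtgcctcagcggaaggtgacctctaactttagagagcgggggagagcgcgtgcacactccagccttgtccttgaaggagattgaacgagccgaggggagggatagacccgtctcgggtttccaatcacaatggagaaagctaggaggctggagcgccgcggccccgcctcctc
Aldoc, first of 2 starts, chr11:78322823-78323072, plus strand: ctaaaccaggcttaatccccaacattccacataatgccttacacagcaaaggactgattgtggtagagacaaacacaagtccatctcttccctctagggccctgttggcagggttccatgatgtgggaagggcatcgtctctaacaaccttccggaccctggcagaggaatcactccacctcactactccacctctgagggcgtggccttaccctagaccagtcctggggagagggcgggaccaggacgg
Pgk1, chrX:106186850-106187099, plus strand: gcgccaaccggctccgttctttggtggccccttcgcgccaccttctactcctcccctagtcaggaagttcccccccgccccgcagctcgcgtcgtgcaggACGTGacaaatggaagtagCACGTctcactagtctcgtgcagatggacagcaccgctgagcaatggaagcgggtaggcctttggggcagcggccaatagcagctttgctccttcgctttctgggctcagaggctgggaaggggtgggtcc

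The Ldha window held 5 matches to ACGTG, 4 of them as the palindrome CACGTG, which counts once on each strand. The Pgk1 window held 2 matches, and those of Ldhb and Aldoc held 0. Of the other members, Aldoa had 1 match at each of 2 overlapping starts and 0 at the remaining start. The windows of Gapdh, Eno2, Pdha1 and the second starts of Ldha and Aldoc held 0. Of all 32851 windows of this length, 16.6% held at least 1 match and 0.502% held over 3. For GCGTG, also counted on both strands, the order differed: the windows shown for Ldhb and Aldoc held 1 match each and those for Ldha and Pgk1 held 0. The Pdha1 window held 3 and that of Gapdh 2, while the second starts of Ldha and Aldoc held 1 each and Eno2 and the 3 starts of Aldoa held 0. At least 1 match to GCGTG was found in 28.2% of all windows. The G and C content was 67.2% for Ldha, 62.8% for Pgk1, 56.4% for Ldhb and 55.2% for Aldoc. A match to these letters is a description of the sequence.

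Values were deposited as linear intensities with the background subtracted. All 8 genes were above 0 on all 6 arrays, as were 171 of the 223 probes. The sum of intensities was 37.5 on replicate 1 and 15.3 to 18.5 on the others, and the correlation of replicate 1 with the other arrays over the measured probes was 0.857 to 0.911, against 0.957 to 0.978 among replicates 2 to 6. Below, a level is the log2 intensity minus the array's median over the measured probes, so 1 unit is a factor of 2. Because each probe has its own efficiency, the level of one gene is not read against that of another, and only the differences of 1 gene or 1 ratio between arrays are compared.

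The muscle aldolase Aldoa varied less between arrays than the brain-type aldolase Aldoc, which was high on replicates 1 and 6. Aldoa had a deposited intensity of 1.42 at the lowest, 2.375 at the median and 3.14 at the highest array, and its level was 8.10 ± 0.30 (SD, n = 6), from 7.57 on replicate 2 to 8.40 on replicate 6. Replicate 2 lay below all other arrays, and without it the SD of the level was 0.16. The deposited intensity of Aldoc was 0.0172 at the lowest, 0.02845 at the median and 0.0607 at the highest array. Its level was 1.86 ± 0.76, with 3.08 on replicate 6, 2.40 on replicate 1 and 1.07 to 1.87 on the other 4 arrays. The level of Aldoc thus spanned 2.01 log2 units, a 4.03-fold range, and that of Aldoa 0.83 units, a 1.78-fold range. Without replicates 1 and 6 the SDs were alike, at 0.34 for each.

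Of the enzymes below aldolase, Gapdh was high on replicates 1 and 6, Pgk1 was among the least variable probes of the array, and Eno2 followed an order of its own. Gapdh had a deposited intensity of 0.8635 at the lowest, 1.208 at the median and 3.11 at the highest array. Its level was 7.31 ± 0.55 (SD, n = 6), with 8.08 on replicate 1 and 7.90 on replicate 6. The other 4 arrays lay between 6.85 and 7.24. Without replicates 1 and 6, set apart here because they were the highest, the SD of the Gapdh level was 0.18. Gapdh is often used as a reference gene, and has many processed copies in the mouse genome, which a probe may also read.

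Pgk1 had deposited intensities of 0.0306, 0.03545 and 0.0572 at the lowest, median and highest array. Its level was 2.16 ± 0.21, from 1.90 on replicate 5 to 2.47 on replicate 6, a 1.49-fold range. The SD of 156 of the 171 measured probes was larger than that of Pgk1. Eno2 had deposited intensities of 0.0112, 0.01935 and 0.0328 at the lowest, median and highest array, and a level of 1.13 ± 0.33. It was highest on replicates 1 and 2, at 1.51 and 1.48, and lowest on replicates 3 and 6, at 0.73 and 0.79. Unlike Gapdh and Aldoc, Eno2 was therefore low on replicate 6.

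Both lactate dehydrogenase subunits were highest on replicate 1 and parted on replicates 2 and 6. The deposited intensity of Ldha was 0.0022 at the lowest, 0.0032 at the median and 0.0125 at the highest array. Its level was -1.12 ± 0.76 (SD, n = 6), with 0.12 on replicate 1, -0.56 on replicate 2 and -1.90 to -1.30 on the other 4 arrays. Ldha was the only one of the 8 genes with a mean level below the array median. The most negative values of the arrays were between -0.0020 and -0.0005, so the lowest Ldha values lie near the error of the background. Ldhb had a deposited intensity of 0.135 at the lowest, 0.2267 at the median and 0.6159 at the highest array. Its level was 4.86 ± 0.58, with 5.74 on replicate 1, 5.35 on replicate 6 and 4.17 to 4.81 on the other 4 arrays. Ldhb thus shared its 2 high arrays with Gapdh, whereas Ldha was at -1.38 on replicate 6.

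Pdha1, part of the enzyme that admits pyruvate to the citric acid cycle, had deposited intensities of 0.0667, 0.0815 and 0.1393 at the lowest, median and highest array. Its level was 3.31 ± 0.25, with 3.65 on replicate 6, 3.60 on replicate 1 and 3.09 to 3.27 on the other 4 arrays. Without replicates 1 and 6 the SD of the Pdha1 level was 0.083. Pdha1 and Pgk1 spanned 0.57 log2 units each, against 2.01 for Aldoc and 2.02 for Ldha.

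**Figure D1:**
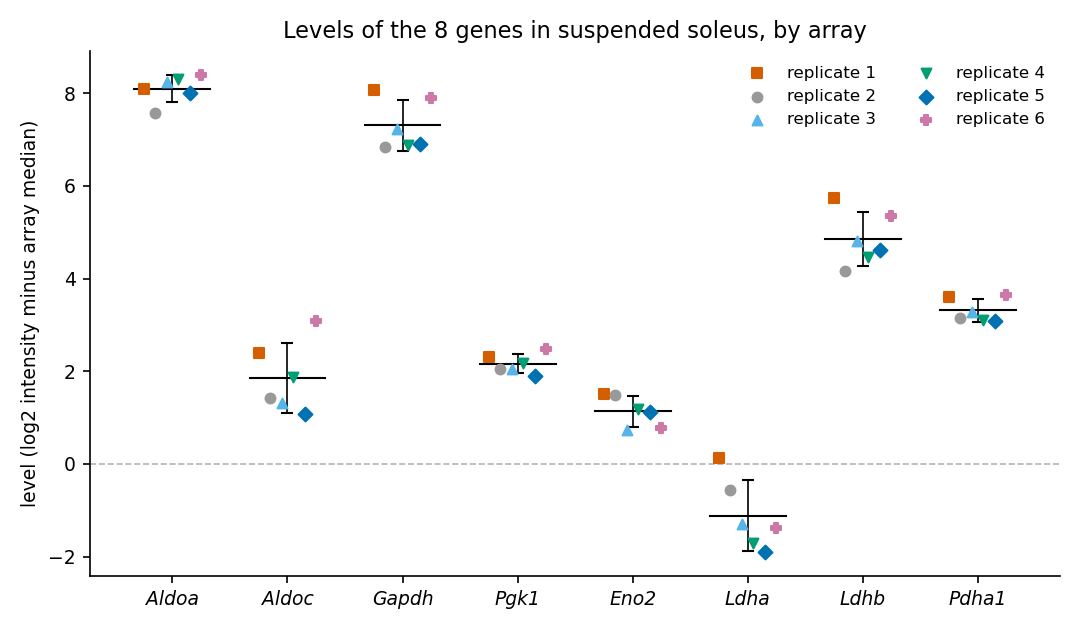
Level of each gene (log2 intensity minus the array median, vertical axis) on each of the 6 arrays (symbols); horizontal bars are means and whiskers 1 SD. Gapdh, Ldhb, Aldoc and Pdha1 sit highest on replicates 1 and 6, and the spread runs from an SD of 0.21 for Pgk1 to 0.76 for Ldha and Aldoc.

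An SD of 0.5 or more was found for 4 of the 8 genes (Aldoc, Ldha, Ldhb and Gapdh), a share close to the 48% of all measured probes. The median SD of the 8 genes was 0.44, against 0.48 over all measured probes. Without replicate 1, 2 of the 8 (Aldoc and Ldha) had such an SD, against 24% of all measured probes. Without replicates 1 and 6, which is an alternative chosen after seeing the data, Ldha alone did, at 0.59, against 24.6% of the probes. Ldhb and Gapdh had SDs of 0.31 and 0.29 with quantile normalization, 0.37 and 0.30 after each array's lowess trend on level was taken out, and 0.44 and 0.40 with arrays scaled to equal totals. Aldoc and Ldha were at 0.5 or more in each of these 3 settings.

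The aldolase and lactate dehydrogenase isoforms were set against each other within each array, since a ratio within an array does not depend on how whole arrays are scaled. The log2 ratio of Aldoa to Aldoc was 6.24 ± 0.65 (SD, n = 6). It was 6.93 on replicates 3 and 5, 6.44 on replicate 4, 6.15 on replicate 2, 5.69 on replicate 1 and 5.32 on replicate 6. The ratio was thus lowest on the 2 arrays on which Aldoc was highest, and highest over lowest array gave a 3.06-fold range. The 2 aldolases had a Pearson correlation of 0.52 over arrays (exact permutation p = 0.31, adjusted over all pairs of measured probes 0.65) and a Spearman correlation of 0.60 (exact p = 0.24).

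The log2 ratio of Ldha to Ldhb was -5.98 ± 0.72 (SD, n = 6). It was -4.73 on replicate 2, -5.62 on replicate 1, -6.11 on replicate 3, -6.18 on replicate 4, -6.51 on replicate 5 and -6.73 on replicate 6. Replicate 2 had the ratio most towards Ldha, with a high Ldha level and the lowest Ldhb level. Without it the SD of the ratio was 0.42, and the range over all arrays was 4.00-fold. With every array raised until its most negative value stood at 0, an alternative chosen after seeing the data, the ratio was -5.64 ± 0.66. The Pearson correlation of Ldha with Ldhb was 0.45 (exact permutation p = 0.36, adjusted over all pairs 0.70) and the Spearman correlation 0.31 (exact p = 0.56). It was 0.87 without replicate 2 (exact p = 0.042) and -0.34 without replicate 1 (exact p = 0.57), so its sign rests on single arrays.

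**Figure D2:**
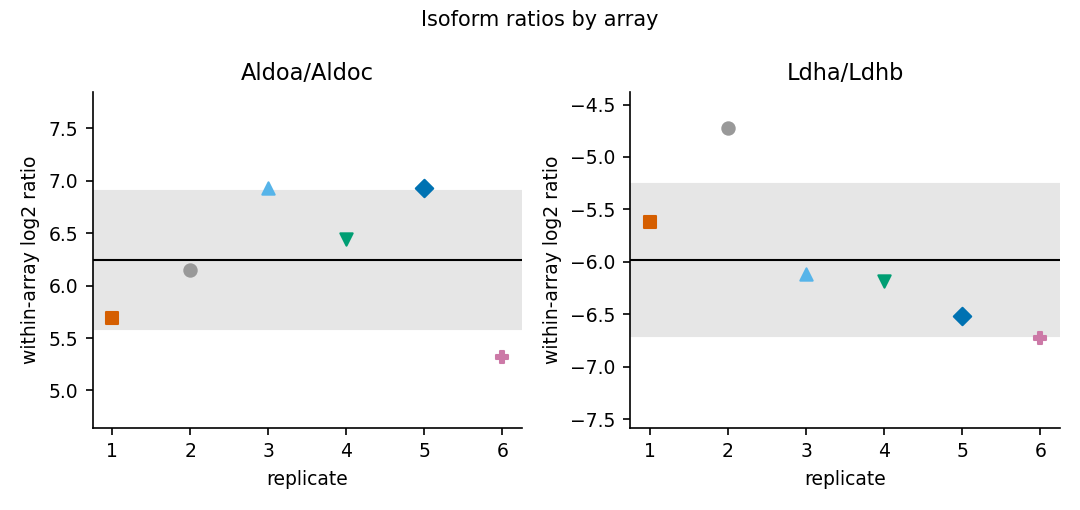
Within-array log2 ratio of Aldoa to Aldoc (left) and of Ldha to Ldhb (right) on each array (horizontal axis); the line is the mean and the grey band 1 SD on either side. The aldolase ratio is lowest on replicates 6 and 1 (5.32 and 5.69), and the lactate dehydrogenase ratio highest on replicate 2 (-4.73) and lowest on replicate 6 (-6.73).

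The isoform ratios were set against each other and against the ratio of fast (Myh4) to slow (Myh7) myosin heavy chain. This asked whether isoform balance moved with that pair of fibre-type transcripts. The Myh4 to Myh7 log2 ratio was -1.62 on replicate 1 and -1.12 to -0.84 on the other 5 arrays. Relative to the mean of replicates 2 to 5, the level on replicate 1 was higher by 1.15 for Myh7. For the fast genes it was higher by 0.58 (Myh4), 0.59 (Myh1) and 1.78 (Myh2). Myh2 thus rose more than Myh7 on that array, unlike Myh4 and Myh1, and ratios with Myh1 or Myh2 were not tested. The aldolase and lactate dehydrogenase ratios had a Pearson correlation of -0.05 (exact permutation p = 0.94) and a Spearman correlation of -0.03 (exact p = 1). With the myosin ratio the aldolase ratio gave 0.06 (exact p = 0.94; Spearman -0.43, exact p = 0.42) and the lactate dehydrogenase ratio -0.29 (exact p = 0.57; Spearman -0.26, exact p = 0.66). After adjustment over these 3 correlations the exact p was 0.94 for each Pearson value and 0.99 to 1 for the Spearman values. Without the 2 arrays farthest from the median of the first ratio, Pearson's r was -0.50, 0.71 and -0.83 (n = 4). The aldolase and myosin ratios had r = -0.98 without replicate 1 (exact p adjusted over the 3 correlations 0.025), so the value near 0 rests on that array. Among the ratio correlations with 1 array left out, this was the most extreme, a choice that the adjustment does not count.

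Of the 28 pairs among the 8 genes, 6 had a positive Pearson correlation with an exact permutation p of 0.05 or less, and 0 a negative one. The 6 pairs lay among Aldoc, Gapdh, Pgk1, Ldhb and Pdha1, whose other 4 pairs had an exact permutation p of 0.057 (Aldoc with Gapdh), 0.061 (Gapdh with Pgk1), 0.11 (Aldoc with Ldhb) and 0.12 (Pgk1 with Ldhb). Among all 14535 pairs of measured probes 6.11% were positive and 5.83% negative at that p. The median correlation was 0.51 over the 28 pairs, against 0.02 over all pairs, but 0.27 against 0.20 with arrays scaled to equal totals and 0.096 against -0.0018 without replicates 1 and 6. No pair of measured probes passed after Benjamini-Hochberg adjustment over all pairs (0% by exact permutation), with 1736 pairs (11.9%) passing without adjustment, and the lowest adjusted p was 0.33. The smallest exact permutation p that 6 arrays allow is 0.0014. Over 14535 pairs, a pair could pass only if many reached such values together. The number of arrays thus nearly fixed this outcome, and it cannot decide whether single pairs covary.

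The pair with the highest Pearson correlation was Aldoc and Pgk1, at 0.99 (exact permutation p = 0.0028, adjusted 0.33), with a Spearman correlation of 0.94 (exact p = 0.017). Without replicates 1 and 6, the arrays farthest from the median of Aldoc, their r was 0.97. Their swings differed in size, since the level of Aldoc spanned 2.01 log2 units and that of Pgk1 0.57. Gapdh and Ldhb had r = 0.97 (exact permutation p = 0.0014, the smallest that all pairings of 6 arrays can give, adjusted 0.33) and the same order on all 6 arrays (Spearman 1, exact p = 0.0028). Their difference in level had an SD of 0.14, against 0.55 for Gapdh and 0.58 for Ldhb alone, and their r was 0.80 without replicates 1 and 6.

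Pdha1 was part of the other 4 pairs. Its correlation was 0.98 with Gapdh (exact permutation p = 0.017, adjusted 0.35), 0.90 with Ldhb (exact p = 0.024, adjusted 0.36), 0.87 with Aldoc (exact p = 0.025, adjusted 0.36) and 0.87 with Pgk1 (exact p = 0.024, adjusted 0.36). The Spearman correlations were 0.71 (exact p = 0.14), 0.71 (exact p = 0.14), 0.77 (exact p = 0.10) and 0.83 (exact p = 0.058), so these 4 pairs did not pass by rank. Without replicates 1 and 6, r was 0.90 with Gapdh, 0.46 with Ldhb, -0.11 with Aldoc and 0.13 with Pgk1. With Pgk1, r was 0.71 without replicates 5 and 6, the arrays farthest from its median.

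The variation of the 5 genes in these 6 pairs, a grouping made after seeing their values, lay mostly in replicates 1 and 6. All 8 genes had their highest level on one of these 2 arrays, as did 56.7% of all measured probes. Relative to the mean of replicates 2 to 5, the level on replicate 1 was higher by 1.49 for Ldha, 1.23 for Ldhb, 1.11 for Gapdh, 0.98 for Aldoc, 0.44 for Pdha1, 0.38 for Eno2, 0.27 for Pgk1 and 0.06 for Aldoa. On replicate 6 the differences were 1.66 for Aldoc, 0.94 for Gapdh, 0.83 for Ldhb, 0.50 for Pdha1, 0.43 for Pgk1, 0.37 for Aldoa, -0.01 for Ldha and -0.34 for Eno2. Over all measured probes the median difference was 0.11 on replicate 1 and 0.03 on replicate 6. For the 43 probes of highest mean level, which include Aldoa, Aldoc, Gapdh, Pgk1, Ldhb and Pdha1, it was 0.50 and 0.33.

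Among the 10 pairs of the 5 genes, r ran from 0.71 to 0.99 over all arrays and from -0.30 to 0.97, with a median of 0.05, without replicates 1 and 6. Over all 28 pairs, 1 passed without these 2 arrays (Gapdh and Eno2, r = -0.92, exact permutation p = 0.042, the smallest that 4 arrays allow, against 5.01% of all pairs). Leaving out replicate 1 alone or replicate 6 alone gave 3 pairs each, in both cases Aldoc with Pgk1 and Gapdh with Ldhb and Pdha1, against 6.54% and 12.5% of all pairs. With each array's lowess trend on level taken out, 6 of the 28 pairs passed, 4 of them the same, against 11.4% of all pairs. With quantile normalization 1 pair passed, Aldoc with Pdha1 (r = 0.83, exact permutation p = 0.047), against 10.2% of all pairs. With equal totals 4 pairs passed, against 12.7% of all pairs, and 2 of them were among the 6 (Gapdh with Ldhb and Pgk1 with Pdha1).

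**Figure D3:**
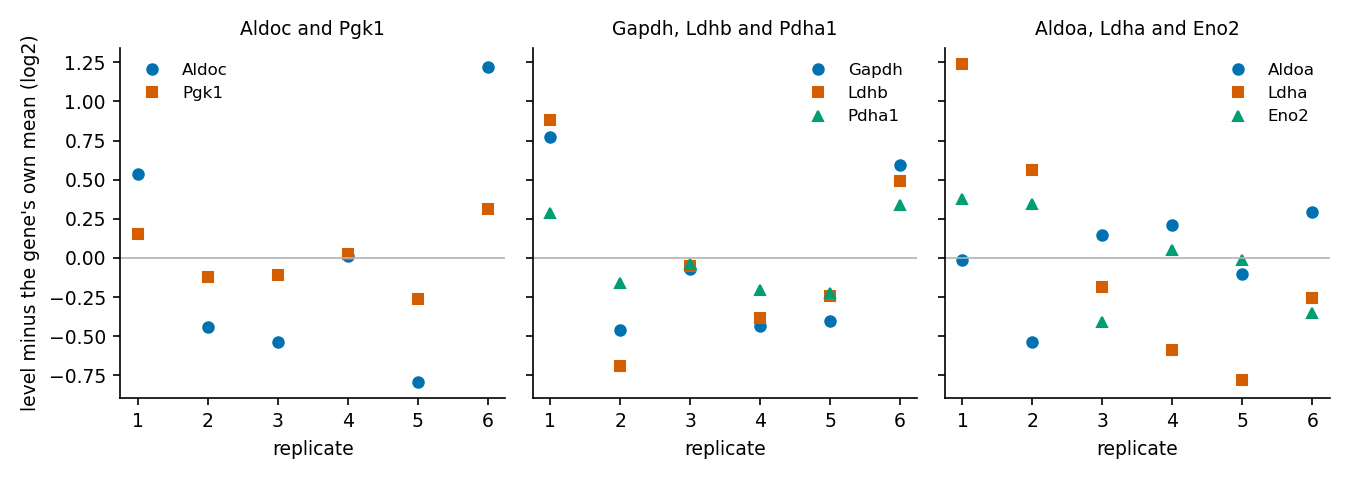
Level of each gene on each array minus the gene's own mean (log2, vertical axis), by replicate (horizontal axis). Aldoc and Pgk1 (left) and Gapdh, Ldhb and Pdha1 (middle) are above their means on replicates 1 and 6, whereas Eno2 and Ldha (right) are below theirs on replicate 6.

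**Figure D4:**
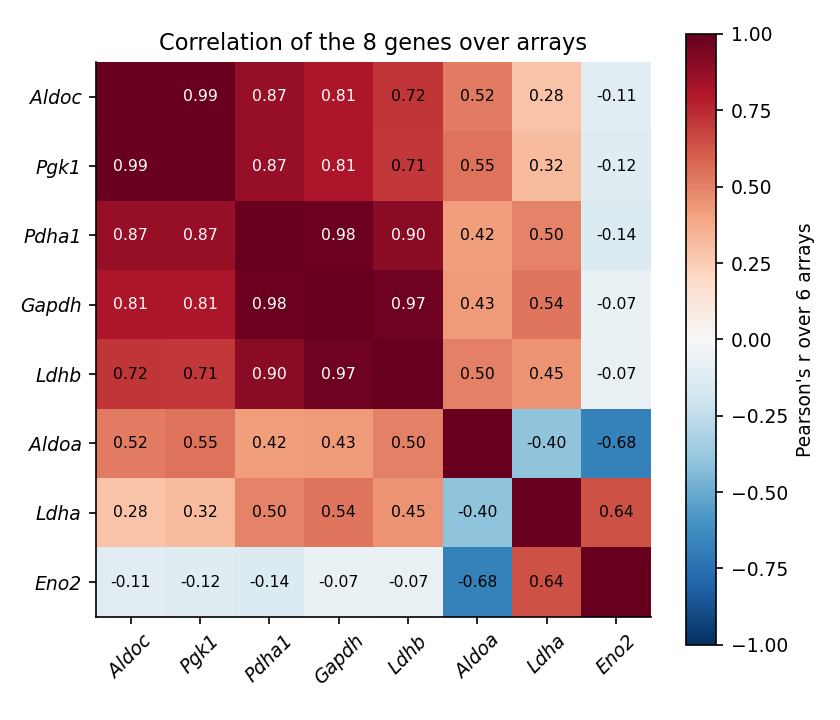
Pearson's r over 6 arrays for each of the 28 pairs of the 8 genes (colour and printed value). Aldoc, Pgk1, Pdha1, Gapdh and Ldhb form a block with r between 0.71 and 0.99. Eno2 has r between -0.14 and -0.07 with each of them over all 6 arrays, values that rest on single arrays.

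Aldoa, Eno2 and Ldha had 0 of 7 pairs each at an exact permutation p of 0.05 or less, and a difference between them and the other 5 genes was not tested. Other settings gave some: with equal totals Aldoa passed with Pgk1 (r = 0.87) and Pdha1 (r = 0.83), without replicate 2 Ldha passed with Gapdh (r = 0.80) and Ldhb (r = 0.87), and once the lowess trend was taken out Aldoa passed with Ldha (r = -0.88). The lowest correlation was that of Aldoa with Eno2 (r = -0.68, exact p = 0.14, adjusted 0.51; Spearman -0.49, exact p = 0.36). Eno2 with Ldha gave 0.64 (exact p = 0.17, adjusted 0.54; Spearman 0.49, exact p = 0.36). With the other 5 genes of the 6 pairs, Eno2 had r near 0 over all arrays. Without replicate 1 these values ran from -0.87 (Ldhb) to -0.39 (Aldoc). Without replicate 6 they ran from 0.18 (Ldhb) to 0.55 (Aldoc), so their sign rests on single arrays. The probe identifiers of Aldoc, Gapdh, Pgk1, Ldha, Ldhb and Pdha1 begin with 18 to 20, while that of Aldoa is 5O and that of Eno2 6N. The sources used here do not say whether these are positions on the array. Among the 435 pairs of measured probes with such identifiers the median correlation was 0.22, against 0.01 over the other pairs. An exact permutation p of 0.05 or less was found for 10.6% of the 435 pairs, no more than the 11.9% of all pairs.

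For each gene the 3 measured genes with the highest Pearson correlation over the 6 arrays were listed, as a description. Ldhb was closest to Cox6a2, the muscle form of a cytochrome c oxidase subunit (0.98), the metalloproteinase inhibitor Timp1 (0.98) and the uncoupling protein Ucp3 (0.97). Gapdh was closest to Pdha1 (0.98), the cytochrome c oxidase subunit Cox8a (0.97) and Ldhb (0.97). Pdha1 was closest to Gapdh (0.98), Cox8a (0.97) and the urokinase plasminogen activator Plau (0.96). A cytochrome c oxidase subunit was thus among the nearest genes of Ldhb, Gapdh and Pdha1 alike. The values were 0.76 for Gapdh with Cox8a, 0.87 for Ldhb with Cox6a2 and 0.96 for Pdha1 with Cox8a when replicates 1 and 6 were left out. These 3 genes were themselves correlated at 0.90 to 0.98, so their lists are not independent. Plau was likewise in the lists of Pdha1, Aldoc and Pgk1. Without replicates 1 and 6 its values with them were 0.58, 0.70 and 0.84.

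Aldoc and Pgk1 were closest to each other (0.99) and then shared both other neighbours. These were Plau (0.93 with Aldoc and 0.94 with Pgk1) and the metalloproteinase Mmp10 (0.88 and 0.93). On 5 of the 6 arrays the intensity of Mmp10 was no larger than the most negative value was below 0, so its pattern lies within the error of the background. Aldoa was closest to Acadl, a dehydrogenase of fatty acid oxidation (0.85), the metalloproteinase inhibitor Timp2 (0.85) and the muscle carbonic anhydrase Car3 (0.82). Without the 2 arrays farthest from the median of Aldoa these values were 0.49, 0.38 and -0.11.

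Eno2 was closest to the muscle calpain Capn3 (0.92), the giant sarcomere protein titin (Ttn, 0.84) and Igfbp4, which binds insulin-like growth factors (0.82). Ldha was closest to Ttn (0.95), the growth factor receptor Pdgfra (0.93) and the fatty acid binding protein Fabp4 (0.93). Ttn was thus among the nearest genes of both Eno2 and Ldha. Without the 2 arrays farthest from the median of Ldha its value with Ttn was -0.37, while that with Pdgfra was 0.88. Capn3 lay within the error of the background by the same measure on 2 of the 6 arrays.

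Of 35 other genes of glucose uptake, glycolysis, pyruvate oxidation and hypoxic control, 7 were probed. Slc2a1, Slc2a4, Hk1, Ldhc, Hif1a and Arnt were above 0 on all arrays, and Vhl, which marks hypoxia-inducible factors for breakdown, on 0 of 6. Of the 48 pairs between the 8 genes and these 6, 4 had an exact permutation p of 0.05 or less, all positive. That share is near the background, since 6.11% of all pairs were positive and 11.9% passed in either direction at that p, and the adjusted p over all pairs was 0.35 to 0.41 for the 4. Ldhb had r = 0.93 with Slc2a4, the insulin-responsive transporter of muscle (exact p = 0.011), and 0.92 with Slc2a1 (exact p = 0.013). Gapdh had r = 0.84 with Slc2a4 (exact p = 0.019) and 0.81 with Slc2a1 (exact p = 0.044). Without replicates 1 and 6 these values, in the same order, were 0.74, 0.98, 0.24 and 0.73. The level was 1.94 ± 0.34 for Slc2a4 and -0.59 ± 0.25 for Slc2a1 (SD, n = 6), and both were highest on replicate 1 and lowest on replicate 2.

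The first enzyme of the path, hexokinase 1 (Hk1), had a level of -2.42 ± 0.66, and on 2 of the 6 arrays its deposited intensity was no larger than the most negative value of that array was below 0. Hif1a, the oxygen-regulated subunit of a hypoxia-inducible factor, was at -1.88 ± 0.34, and its partner Arnt at 0.31 ± 0.20. Ldhc, a lactate dehydrogenase subunit known mainly from testis, had deposited intensities between 0.0040 and 0.0062. These lie within the range of Ldha, 0.0022 to 0.0125. Whether the probes of Ldha and Ldhc read only their own genes was not tested.

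The slow and fast fibre markers on the array, Myh7 and Mb (of 8 listed) and Myh1, Myh2 and Myh4 (of 7), were all measured on every array. The summed intensity of the slow markers was 1.27 to 3.57 and that of the fast markers 0.867 to 2.47, both highest on replicate 1. Of the endothelial markers 4 of 6 were probed and measured, with sums of 0.0618 to 0.0726, and of the fat markers 1 of 4 (Fabp4), at 0.0255 to 0.084. The immune markers Il1b and Il6 (2 of 6 listed) were above 0 on 2 of 6 arrays each, and 0 of 7 nerve and glia markers were probed. The part of other cell types in the levels of Eno2, Aldoc and Ldha was not tested, and fewer cells of a type and less RNA per cell cannot be told apart in such whole-muscle samples.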

How the data were processed

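Soleus RNA of suspended mice labelled wild type was hybridised to 6 arrays of 223 probes. The deposited table holds 1 linear intensity per probe and array, background-subtracted by the authors per the values (171 of 1338 lie at or below 0). The sources used here do not give scaling, scanner or spot averaging. Precision is limited by the number of arrays. Gene names come from GEO's annotation of the platform (205 with 1 symbol, 0 with several, 18 unnamed). Probes above 0 on all arrays (171) were kept. Their log2 intensities, computed here from the deposited values without a pseudocount, were centred on each array's median. Pearson and Spearman correlations were tested two-sided with all pairings of the arrays. They were adjusted by Benjamini-Hochberg over all pairs of measured probes, or over the 3 ratio correlations. The permutation code was tested on simulated data. The genes named are the 8 members, the 3 genes most correlated with each, Myh4 and Myh7, and a pathway list and a marker list. Any other gene named was chosen after its values were seen. Members and lists were chosen with earlier results of these data known. Alternatives were no centring, equal totals, quantile normalization, a lowess curve (span 0.5), a filter at the 25th percentile of level, rank correlation and leaving out arrays. Python 3.11.15, numpy 2.4.6, pandas 2.3.3 and statsmodels 0.14.6 were used.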

Additional observations from a re-analysis of the deposited data

Results flagged for a closer look

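Of 19 sets of 6 values (8 levels, 8 deposited intensities and 3 log2 ratios), 5 had an extreme array, in each case replicate 1. Its gap to the next value, as a share of the whole range, was above Dixon's critical value. Chance gives this in about 1 of 20 independent sets. The 19 sets are not independent, since the levels are the same intensities after centring. The intensities are also unscaled, with the largest sum on replicate 1, so the 2 shares cannot be compared. The deposited intensity of replicate 1 was 3.11 for Gapdh, against 0.8635 to 1.556 on the others. It was 0.6159 for Ldhb, against 0.135 to 0.2648, and 0.1393 for Pdha1, against 0.0667 to 0.0845. It was 0.0125 for Ldha, against 0.0022 to 0.0051. After centring on the array median 0 of the 8 levels stood apart in this way. The Myh4 to Myh7 log2 ratio was -1.62 on replicate 1, against -1.12 to -0.84 on the others.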

How the results depend on the processing

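No paired analysis was possible because all arrays belong to 1 group. When single arrays were left out, the mean isoform ratios were 6.11 to 6.43 for Aldoa to Aldoc and -6.23 to -5.83 for Ldha to Ldhb. Leaving out 1 or 2 of 6 arrays cannot move a mean by 1 SD, so these runs are a description only. In the alternatives that could, the means moved by less than 1 SD. They were 6.23 and -6.01 with quantile normalization, 6.26 and -6.00 with the lowess curve and 6.19 and -5.64 with the additive offset. The number of genes with an SD of 0.5 or more, 4 in the report, was 5 without centring, 2 with equal totals, quantile normalization and the lowess curve and 1 without replicates 1 and 6, against 59.6%, 48%, 44.4%, 40.9% and 24.6% of all measured probes. It was 2 to 4 without single arrays, against 24% to 50.9%. The number of correlated pairs, 6 of 28 in the report, was 10 without centring, 4 with equal totals, 2 by rank, 1 with quantile normalization, 1 without replicates 1 and 6 and 3 to 6 without single arrays, against 17.2%, 12.7%, 5.88%, 10.2% and 5.01% of all pairs for the first 5 and 6.54% to 12.5% without single arrays. Gapdh with Ldhb passed in 12 of 14 alternatives and Aldoc with Pgk1 in 11. Pdha1 passed with Gapdh in 9, with Aldoc in 7, with Pgk1 in 6 and with Ldhb in 5. Among the 14, the filter by level could not change a pair, because it follows the centring. Without replicates 1 and 6 only 4 arrays remain, where the smallest possible exact permutation p is 0.042, so few pairs can pass. Gapdh with Ldhb lost the threshold with quantile normalization (r = 0.69) and without replicates 1 and 6 (r = 0.80). Aldoc with Pgk1 lost it with quantile normalization, with equal totals (r = 0.67) and without replicates 1 and 6 (r = 0.97). Aldoc with Pdha1 had r = -0.11 without replicates 1 and 6. Without single arrays the aldolase and lactate dehydrogenase ratios had r from -0.65 to 0.17 (0.05, 0.02 and 0.17 without replicates 1, 2 and 5), the aldolase and myosin ratios -0.98 to 0.66 (-0.98 without replicate 1, and -0.43 by rank) and the lactate dehydrogenase and myosin ratios -0.89 to -0.04. Aldoa with Aldoc had r = -0.063 with the lowess curve, and Ldha with Ldhb 0.87 without replicate 2, -0.10 with equal totals, -0.34 without replicate 1 and -0.63 without replicates 1 and 6. The cause of these changes was not tested. The additive offset and the omission of replicates 1 and 6 together were chosen after seeing the data. Intensities within the error of the background limit the values of Mmp10 (5 of 6 arrays), Capn3 and Hk1 (2 of 6 each) most among the genes checked for it, and among the 8 genes Ldha lies nearest to it.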
